A study of Mus musculus with 3 samples.

Results

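The respiratory chain is the set of 5 protein complexes in the inner mitochondrial membrane that oxidises NADH and succinate and makes ATP, and its 101 measured genes were followed here in blood cells of C57BL/6J mice. The genes were chosen by symbol: names beginning with Nduf, Uqcr, Atp5, mt-Nd, mt-Co, mt-Cy, mt-Atp or Cox4 to Cox8, together with Sdha, Sdhb, Sdhc and Sdhd, and at least 20 unique molecular identifiers (UMIs, counts of single RNA molecules) over all barcodes. Of 31053 genes in the count matrices, 106 matched by symbol and 101 had enough UMIs. The 101 comprised 88 genes of the nuclear genome and 13 of the mitochondrial genome. By complex, 51 genes were assigned to complex I (44 nuclear, 7 mitochondrial), 4 to complex II, 9 to complex III, 19 to complex IV and 18 to complex V, assembly factors included. The 5 genes left out for low counts were Cox7b2, Cox8b, Cox8c and Ndufa4l2, which are tissue-restricted isoforms, and a second gene identifier carrying the symbol Atp5o.

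One droplet library was available for each of 3 groups, all taken at 12 h. They were Sham, CLP and HDCA+CLP, and values are given in that order. CLP is taken to stand for caecal ligation and puncture, which causes abdominal sepsis, and this group was given CMC, taken as the vehicle carboxymethylcellulose. HDCA+CLP had the same surgery with HDCA, taken as the bile acid hyodeoxycholic acid. CMC does not appear in the Sham label, and surgery and vehicle cannot be told apart in CLP against Sham. The labels call the cells peripheral blood mononuclear cells, yet neutrophils made up much of 2 libraries. With 1 library a group and no stated number of animals, no comparison below has a test: intervals are 95% counting intervals of 2 libraries, and between-animal variation is unknown.

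Cells were assigned in order to 5 lineages. A neutrophil had at least 5% of its UMIs from S100a8 and S100a9; other cells were B (Cd79a, Cd79b, Ms4a1), T (Cd3d, Cd3e, Cd3g, Trac), NK (Ncr1, Klrb1c, Klra8) or monocyte (Csf1r, Ms4a6c, F13a1) by their summed counts. The gates gave 234, 5031 and 9021 neutrophils, and B cells numbered 2696, 273 and 275, T cells 3061, 3091 and 1382, NK cells 262, 981 and 496, and monocytes 287, 723 and 283. In every library each lineage had UMIs of all 7 of its own markers that the gates did not use. The 7 B markers summed to 21801, 10816 and 12110 CPM (UMIs scaled to the total of the lineage in that library) in the B gate, and to 119, 33.3 and 12.6 CPM in the neutrophil gate. The T gate also held cells meeting the NK gate: 35 of 3061, 264 of 3091 and 37 of 1382. Cells meeting both the neutrophil and the monocyte gate were kept as neutrophils, and their number was not counted.

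Nuclear genes encode most subunits, which are translated in the cytosol and imported, whereas mitochondrial DNA encodes a core of hydrophobic subunits transcribed together from long polycistronic RNAs. Complex II has no mitochondrially encoded subunit. Circulating neutrophils are known to rely mainly on glycolysis and to hold few mitochondria, while lymphocytes and monocytes respire more. The kit reads the 3' ends of polyadenylated RNA, so values of a gene were compared between libraries and lineages, not between genes.

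The summed share of UMIs from the nuclear genes followed the same order of lineages in all 3 libraries: neutrophils lowest, then B and T cells, then NK cells and monocytes. In Sham these genes made up 0.838% of neutrophil UMIs, 1.49% in B cells, 1.61% in T cells, 2.07% in NK cells and 2.29% in monocytes. The mitochondrially encoded genes had another order. They made up 0.575% of neutrophil UMIs, 5.13% in B cells, 4.45% in T cells, 2.84% in NK cells and 3.17% in monocytes of the Sham library. Neutrophils were therefore lowest on both genomes, and B cells were highest on the mitochondrial one only.

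The number of mitochondrial UMIs per nuclear UMI separated the lineages further. In B cells it was 3.44, 3.39 and 3.13, and in T cells 2.77, 2.49 and 1.94. NK cells (1.37, 1.25 and 1.12) and monocytes (1.38, 1.25 and 1.12) had overlapping intervals in each library. Neutrophils stood at 0.686, 0.769 and 0.712. The ratio was lower in HDCA+CLP than in CLP in all 5 lineages, and lower in CLP than in Sham in T cells, NK cells and monocytes; in B cells the CLP and Sham intervals overlapped.

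**Figure D1:**
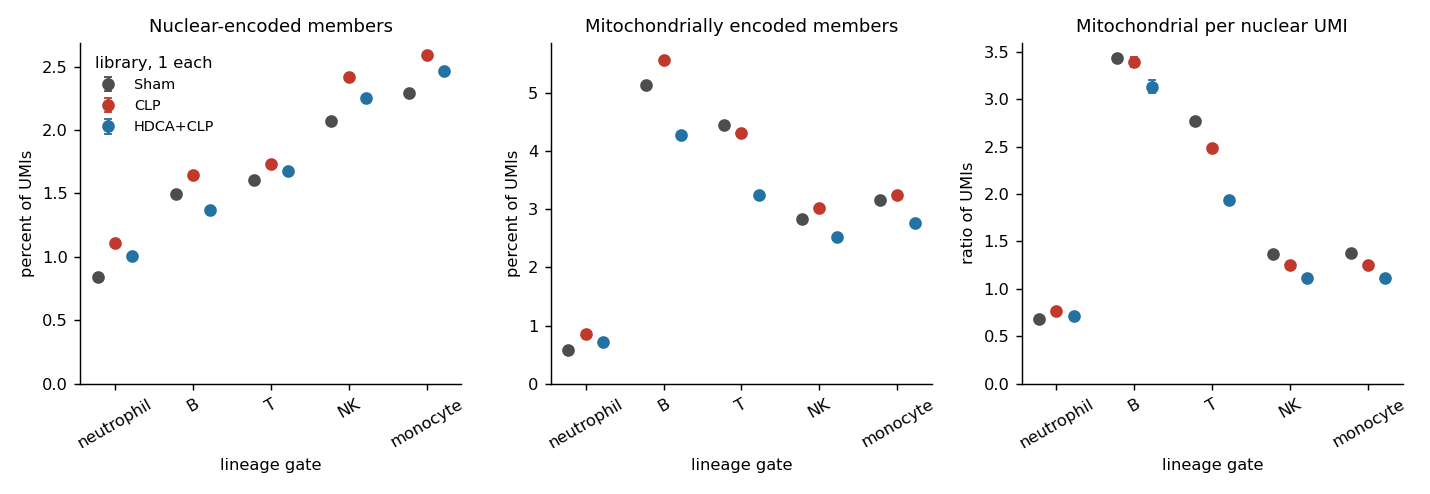
Share of UMIs from the 88 nuclear and the 13 mitochondrially encoded respiratory chain genes, and mitochondrial UMIs per nuclear UMI (vertical axes), in 5 lineages (horizontal axis) and 3 libraries (colours; bars are 95% counting intervals, mostly smaller than the points). The CLP points lie above the Sham points for the nuclear genes in each lineage, and the HDCA+CLP points lie below the CLP points in every panel and lineage.

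In UMIs summed over a lineage, most measured nuclear respiratory chain genes were higher in CLP than in the Sham library in each lineage, with the largest median in neutrophils. In B and T cells this depended on how cells were weighted. A gene counted as measured with at least 20 UMIs over the pair of libraries, and as called when it differed at least 1.5-fold with an interval on one side of no difference. In neutrophils 69 of 85 measured nuclear genes lay above Sham; their median log2 ratio was 0.57, against -0.11 over all 10164 genes measured there. Ndufaf2 and Ndufaf5, complex I assembly factors with 0 UMIs in Sham neutrophils, were counted in neither direction, likewise Cox6b2 with 0 UMIs in CLP B cells. Of these, 36 were called higher and 0 lower, where the background of all genes was 11.2% called higher and 22.2% called lower. In monocytes 61 of 86 were higher (median 0.24 against -0.19), with 14 called higher and 4 lower. The backgrounds were 16% and 27.9%, so the called-higher share was near the background there. Over the 1946 genes with the most UMIs in monocytes, the median was 0.09, so the gap to all genes depended on abundance.

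The lymphoid lineages showed smaller differences. In NK cells 64 of 85 nuclear genes were higher (median 0.18 against -0.28 for all genes). Of these 85, 12 were called higher and 1 lower beside backgrounds of 7.41% and 24.9%. Over the 897 genes with the most UMIs in NK cells, the median was 0.06, so the gap depended on abundance. In B cells 57 of 85 were higher (median 0.14 against -0.11), with 5 called higher and 3 lower beside 9.55% and 15.2%. In T cells 54 of 85 were higher (median 0.10 against -0.04), with 3 called higher and 4 lower beside 14.6% and 15.3%. Called shares in B and T cells were thus no larger than the background, and the difference there lay in many small shifts. The sign of the median depended on the weight given to cells: as a mean over cells it was -0.012 in T cells and -0.016 in B cells. Thinned to 2000 UMIs a cell, the summed log2 ratio was -0.0095 in B cells and the median was -0.0011 in T cells. The median share of nuclear genes per cell was lower in CLP in both lineages, at 1.44% and 1.40% in B cells and 1.54% and 1.52% in T cells.

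Of 84 nuclear genes measured in all 5 lineages, 35 were higher in CLP in all 5 and 4 were lower in all 5, which is 41.7% and 4.76%. Over 8124 genes measured in all 5 lineages, the shares were 9.88% and 21.0%. The lineages come from the same 2 libraries and are not replicates. The 4 genes lower throughout were Ndufa3, Cox6a1, Sdha and Atp5s.

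**Figure D2:**
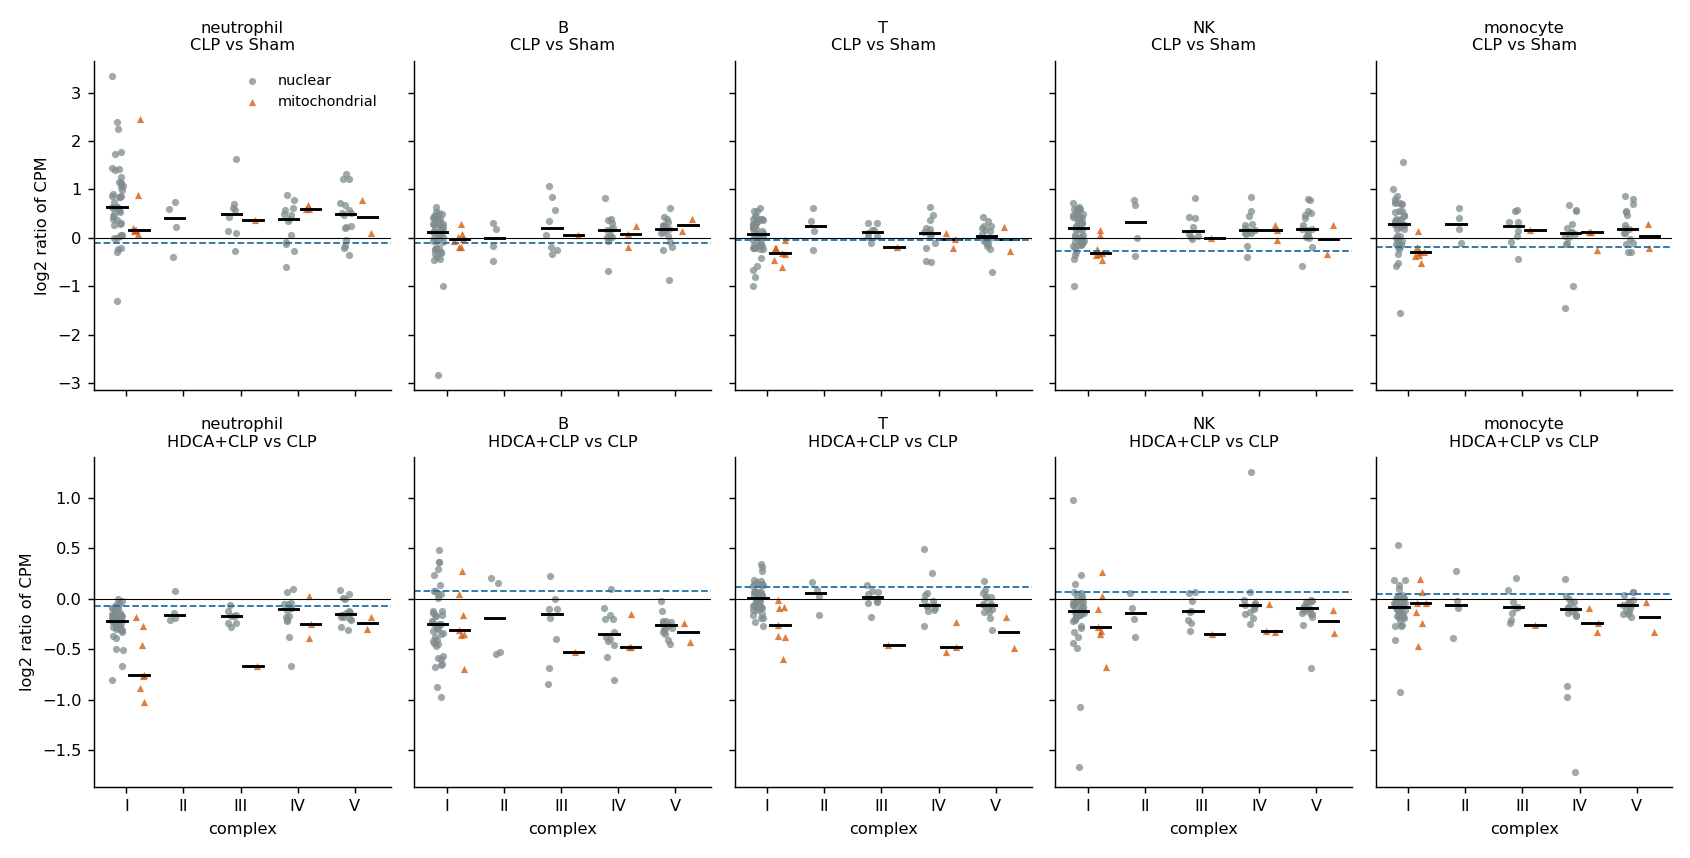
Log2 ratio of CPM (vertical axis) of each measured respiratory chain gene by complex (horizontal axis), lineage (columns) and comparison (rows, with separate scales); grey circles are nuclear genes, orange triangles mitochondrially encoded genes, black bars their medians, and the dashed blue line the median of all genes. In CLP against Sham most circles lie above the dashed line, and in HDCA+CLP against CLP most triangles lie below it.

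Complex I, the NADH dehydrogenase, carried the largest differences in neutrophils: 33 of its 36 measured nuclear subunit genes were higher in CLP and 23 were called, beside 11.2% of all genes. Ndufa5, an accessory subunit of the peripheral arm, stood at 4.24, 43.1 and 30.4 CPM, and the log2 ratio of CLP to Sham was 3.35 (2.12 to 4.97). Its Sham value rested on 5 UMIs. Ndufa11, an accessory subunit of the membrane arm, was at 24.6, 130 and 113 CPM, a log2 ratio of 2.40 (1.88 to 2.98). The core subunits behaved similarly, with 6 of 7 higher in neutrophils, among them Ndufs3 at 10.2 and 22.2 CPM (1.13, 0.32 to 2.09). In monocytes Ndufs4, a subunit needed for a stable NADH-oxidising module, stood at 113 CPM in the Sham library and 226 CPM in the CLP library (0.84 to 1.17 on the log2 scale).

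Ndufa3, a small membrane-arm subunit, went the other way. Its level in B cells was 212, 106 and 90.7 CPM, and the log2 ratio of CLP to Sham was -0.99 (-1.27 to -0.73). In T cells Ndufa3 was at 230, 132 and 124 CPM, a log2 ratio of -0.80 (-0.87 to -0.73). In NK cells it was at 315, 158 and 165 CPM, with a log2 interval of -1.17 to -0.82. The differences in neutrophils (-0.23) and monocytes (-0.53) were smaller and not called. Sham was thus the library that stood apart for Ndufa3, and the other 2 libraries lay close together.

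Complex II, succinate dehydrogenase, was split by subunit. Sdha, the flavoprotein that oxidises succinate, was lower in CLP than in Sham in all 5 lineages: 92.9 against 66.8 CPM in B cells (log2 ratio -0.48, -0.84 to -0.14) and 84.9 against 71.5 in T cells (-0.25, -0.35 to -0.14). In neutrophils and monocytes the interval of Sdha included 0. Sdhb, the iron-sulphur subunit, was higher in all 5, with 61.9 and 104 CPM in neutrophils (0.75, 0.41 to 1.10) and at 122 and 195 in NK cells (0.68, 0.43 to 0.93). The membrane anchor Sdhd was also higher in all 5, with calls in T cells (42.3 to 64.4 CPM, 0.61) and NK cells (62.3 to 107 CPM, 0.78). Sdhc, the other anchor, was called in monocytes alone, at 53.2 and 81.2 CPM (0.61, 0.37 to 0.86). Of the 4 genes, 2 were called higher in NK cells, 1 each in neutrophils, T cells and monocytes, and 0 in B cells. The shares of all genes called higher were 7.41%, 11.2%, 14.6%, 16% and 9.55% in that order.

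Of 8 nuclear complex III genes, 2 were called higher in B cells (25%), 1 in NK cells (12.5%) and 3 in neutrophils (37.5%). The shares of all genes called higher were 9.55%, 7.41% and 11.2%. Uqcrq, a small accessory subunit, stood at 136 CPM (Sham) and 287 CPM (CLP) in B cells (log2 ratio 1.08, 0.90 to 1.25), and at 232 and 413 in NK cells (0.83, 0.65 to 1.01). Uqcr10, another small subunit, was at 180 and 321 CPM in B cells (0.84, 0.67 to 1.00). Uqcrb was at 51.7 and 159 CPM in neutrophils (1.62, 1.26 to 2.01) and, with the opposite sign, at 147 and 117 in B cells (-0.33, -0.59 to -0.07). The sign of Uqcrb in B cells depended on doublets: it was 0.17 without doublet removal.

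Among complex IV genes, Cox5a, an early-assembling subunit, was higher in CLP in all 5 lineages, with log2 ratios from 0.47 in T cells to 0.89 in neutrophils. Cox5a levels in NK cells were 260 and 468 CPM. Cox6a1, the widely expressed isoform of subunit 6A, was lower in all 5, at 205 against 128 CPM in B cells (-0.68, -0.93 to -0.43) and at 194 against 137 in T cells (-0.50, -0.58 to -0.43). In monocytes the sign of Cox6a1 changed with median-of-ratios scaling (0.05). Cox7a2l, grouped here with the assembly factors, stood at 416, 209 and 188 CPM in monocytes, a CLP to Sham log2 ratio of -0.99 (-1.09 to -0.89). The same gene was higher in CLP in T cells (0.21) and NK cells (0.21), so the lower level was not shared by the lineages. Cox6b2, a testis isoform, was likewise lower in CLP monocytes, at 16.9 and 6.18 CPM (-1.46, -2.00 to -0.90).

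For complex V, the ATP synthase, the 3 genes Atp5g1, Atp5g2 and Atp5g3 encode the same mature c subunit of the proton-driven ring, and each was higher in CLP in all 5 lineages. Atp5g1 stood at 39.0, 90.2 and 74.1 CPM in neutrophils, with a CLP to Sham log2 ratio of 1.21 (0.79 to 1.66). In monocytes Atp5g1 was at 307, 557 and 585 CPM (0.86, 0.76 to 0.96). Atp5g3 was at 189, 328 and 289 CPM in monocytes (0.80) and at 193, 338 and 318 in NK cells (0.81). Atp5g2 was called in neutrophils alone (50.8, 80.9 and 73.9 CPM, 0.67). Other genes of the complex were lower in CLP neutrophils, among them Atp5l at 530 and 416 CPM (-0.35, -0.47 to -0.23) and Atp5e at 425 and 366 (-0.21, -0.34 to -0.08).

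Assembly factors build the complexes and are in general not part of them, and Cox7a2l was grouped with them here. Of the 10 measured, 5 were higher and 3 lower in CLP neutrophils (median 0.02), 6 were higher in B cells (median 0.05), 3 in T cells (-0.18), 4 in NK cells (-0.14) and 6 in monocytes (0.26). The summed log2 ratio in monocytes had the other sign (-0.50). Cox7a2l weighs most in this sum: it had 62580 UMIs over all barcodes, and the next of the 10, Ndufaf8, had 8754. In monocytes Cox7a2l was at 416 and 209 CPM, as given above. In monocytes Ndufaf2, a complex I assembly factor, stood at 5.98 and 17.7 CPM (1.57, 0.87 to 2.35). Ndufaf7, a methyltransferase for a complex I subunit, was at 51.2 and 17.4 CPM in the same cells (-1.56, -1.87 to -1.24).

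Promoter sequences were examined because many nuclear genes differed in the same direction. RefSeq windows (GRCm38.p6, 250 bases before to 50 after the start) matched 72 of 88 nuclear genes by symbol. These genes had 77 windows. On either strand, the letters GCATGCGC, the core of the NRF1 element, were in 12 of them (15.6%), against 2.71% of all 32851 windows. CCGGAAG, an ETS-family core, was in 18 (23.4%, against 8.86%), and AAGATGGC, a YY1 core, in 10 of the 77, against 2.75% of all windows. Below are the 120 bases before the start, on the gene's strand, of 3 genes higher in CLP in all 5 lineages and of Cox6a1, lower in all 5; capitals mark the NRF1 or ETS letters, and the genes were picked after their values were seen.
Ndufa11 (chr17:56717642-56717761, plus strand): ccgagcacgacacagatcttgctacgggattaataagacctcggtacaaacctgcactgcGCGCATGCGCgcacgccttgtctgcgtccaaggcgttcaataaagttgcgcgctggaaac
Sdhb (chr4:140961151-140961270, plus strand): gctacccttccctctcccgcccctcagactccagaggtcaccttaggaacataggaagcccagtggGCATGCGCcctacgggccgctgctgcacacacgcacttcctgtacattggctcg
Ndufs3 (chr2:90904722-90904841, minus strand): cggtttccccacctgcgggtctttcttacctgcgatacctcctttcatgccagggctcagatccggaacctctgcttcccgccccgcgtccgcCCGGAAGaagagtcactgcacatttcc
Cox6a1 (chr5:115348959-115349078, minus strand): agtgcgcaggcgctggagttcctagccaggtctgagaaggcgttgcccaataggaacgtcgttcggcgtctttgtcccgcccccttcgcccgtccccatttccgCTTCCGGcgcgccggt
In Ndufa11 the NRF1 letters were found on both strands in overlapping positions. Outside the bases shown, Cox6a1 also held NRF1 letters on both strands, at -162 and -160 from the start. Sdhb and Ndufs3 also held ETS letters after the start, at positions 7 and 2. Genes of both directions held these letters, and a match of letters is not a measured binding site.

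The mitochondrially encoded genes differed in direction between lineages. In CLP against Sham, 13 of 13 were higher in neutrophils, 8 in B cells, 2 in T cells, and 5 each in NK cells and monocytes. Their summed log2 ratio was 0.57 in neutrophils, 0.12 in B cells, -0.05 in T cells, 0.10 in NK cells and 0.03 in monocytes. In neutrophils 6 were called higher, against 11.2% of all genes; in T cells 1 was called lower, which is 7.69%, against 15.3%. The count in B cells was 3 without doublet removal and 4 with a 5% mitochondrial limit. It was also 4 with simulated doublets left out in place of cells meeting 2 gates. With median-of-ratios scaling it was 4 in T cells, where the sum became 0.0091, and 8 in NK cells. mt-Co2, a complex IV subunit, and mt-Atp6, a complex V subunit, were higher in all 5 lineages. In T cells mt-Atp6 stood at 8356 and 9739 CPM (log2 ratio 0.22, 0.21 to 0.23), while mt-Nd3, a complex I subunit, stood at 925 and 612 (-0.60, -0.63 to -0.56). All 7 mitochondrial complex I genes were lower in CLP than in Sham T cells, and 25 of the 36 nuclear complex I genes were higher. In neutrophils the count of 13 rested on the removal of cells meeting gates of 2 lineages: without it, 5 of 13 were higher, and the summed log2 ratio was 0.08 in place of 0.57.

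**Figure D3:**
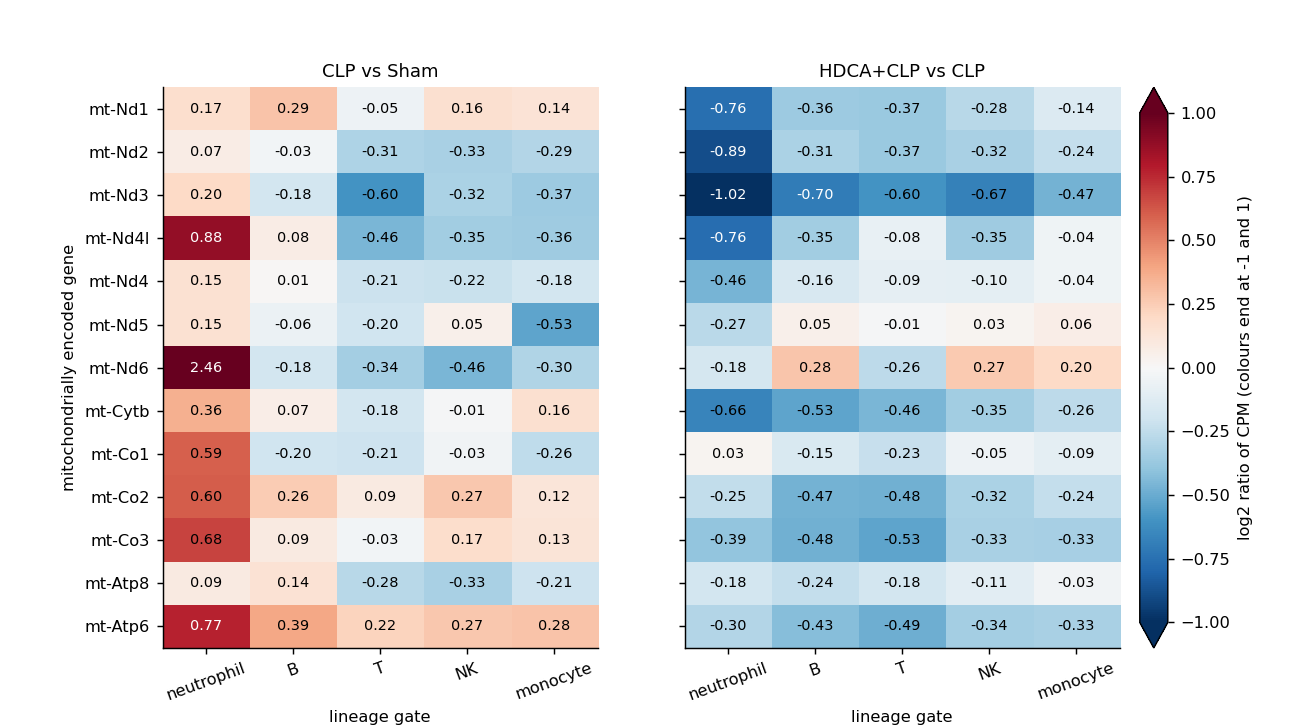
Log2 ratio of CPM (colour and number in each cell; colours end at -1 and 1) of the 13 mitochondrially encoded genes (rows, grouped by complex) in 5 lineages (columns), for CLP against Sham (left) and HDCA+CLP against CLP (right). On the right mt-Nd3 is lower in each lineage, from -0.47 in monocytes to -1.02 in neutrophils.

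The neutrophils of Sham and CLP differed in their granule transcripts, which are made while the cells mature in bone marrow. The share of UMIs from Camp, Ngp, Ltf, Lcn2 and Chil3 was under 1% in 191 of 234, 8 of 5031 and 10 of 9021 neutrophils. It was 5% or more in 11, 3636 and 6383 cells. This split was chosen after the data were seen. Among cells with 1 to 5%, 50 of 81 nuclear genes were higher in CLP (32 Sham and 1387 CLP cells; summed log2 ratio 0.10, 0.04 to 0.16), compared with 0.40 over all neutrophils. The mitochondrial genes turned over: 1 of 13 was higher and the summed log2 ratio was -0.36 (-0.42 to -0.30). With 5% or more granule transcripts, 58 of 84 nuclear genes and 3 of 13 mitochondrial genes were higher in CLP. Under 1%, where CLP had 8 cells, 69 of 70 nuclear and 10 of 10 mitochondrial genes were higher in CLP, with summed log2 ratios of 1.76 and 2.91. The nuclear share of these 8 cells was 2.59%. The median nuclear share per cell was 2.54% in CLP monocytes and 1.08% in CLP neutrophils. Whether the 8 cells also met the monocyte gate was not tested. The neutrophil difference was thus smaller or of opposite sign in the bins that held nearly all CLP neutrophils, and over all neutrophils it cannot be told apart from the difference in granule share.

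**Figure D4:**
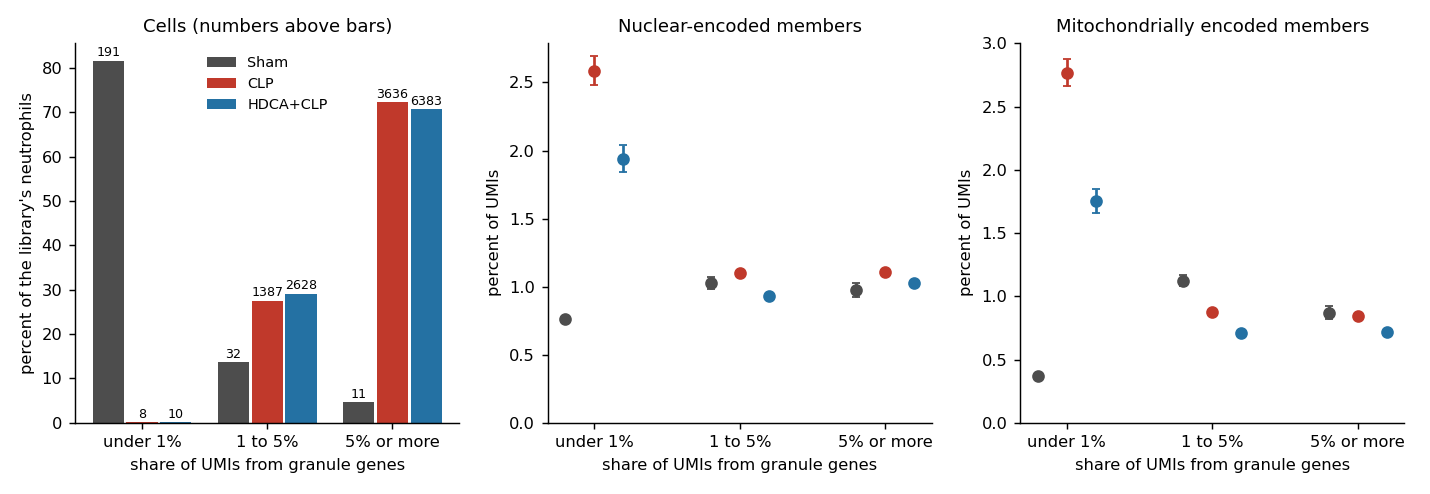
Neutrophils by the share of UMIs from 5 granule genes (horizontal axes): percent of each library's neutrophils with the number of cells above each bar (left), and the share of UMIs from nuclear (middle) and mitochondrially encoded (right) respiratory chain genes, with 95% counting intervals. With 1 to 5% granule transcripts the mitochondrial share was 1.12%, 0.874% and 0.713% (Sham, CLP, HDCA+CLP).

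HDCA+CLP had lower summed mitochondrially encoded transcripts than CLP in all 5 lineages. The CLP library is shared with the comparison above, so a high or low CLP value moves the comparisons in opposite directions. In T cells these 13 genes made up 4.45%, 4.31% and 3.25% of UMIs. The HDCA+CLP share was below both other libraries in T cells, and the median per cell followed (4.38%, 4.22% and 3.04%). The summed log2 ratio of HDCA+CLP to CLP was -0.40 in T cells, -0.38 in B cells, -0.27 in NK cells, -0.25 in neutrophils and -0.23 in monocytes. Its sign was the same under the 13 other settings of filters, scaling and gates tried in each lineage, within which it ranged from -0.51 to -0.17.

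Of the 13 mitochondrial genes, 10 were lower in HDCA+CLP in all 5 lineages, which is 76.9%, against 7.96% of 6523 genes measured in all 5. The exceptions were mt-Nd5, mt-Nd6 and mt-Co1. mt-Nd6 is the 1 gene here on the opposite strand of the mitochondrial genome from the other 12. mt-Nd3 stood at 925, 612 and 404 CPM in T cells, and the log2 ratio between the last 2 was -0.60 (-0.66 to -0.54). It was called lower in neutrophils, B, T and NK cells. mt-Cytb, the mitochondrial subunit of complex III, was at 4154, 3663 and 2665 CPM in T cells (-0.46 for HDCA+CLP to CLP).

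In neutrophils the mitochondrial genes of different complexes differed unequally between HDCA+CLP and CLP. Summed over the 7 complex I genes, the log2 ratio was -0.62 (-0.64 to -0.60), against -0.16 (-0.16 to -0.15) for the 3 complex IV genes. The order was the other way in T cells (-0.27 for complex I and -0.42 for complex IV), B cells (-0.28 and -0.38) and monocytes (-0.13 and -0.23), and both sums were -0.24 in NK cells. mt-Nd2 was at 150, 158 and 85.3 CPM, a log2 ratio of -0.89 (-0.94 to -0.84) between the last 2. mt-Nd1 was at 192, 216 and 128 CPM (-0.76, -0.80 to -0.72). mt-Co1 was at 1670, 2521 and 2568 CPM, and its difference was close to 0 (0.03) with a sign that flipped under 2 alternatives. The lower summed mitochondrial share in HDCA+CLP also held among cells with 1 to 5% granule transcripts (-0.29) and with 5% or more (-0.23).

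Nuclear genes were lower in HDCA+CLP than in CLP by smaller amounts. In neutrophils 7 of 86 were higher (median -0.18 against -0.07 over all genes), with 0 called higher and 2 lower beside backgrounds of 3.17% and 5.89%. In B cells 16 of 81 were higher (median -0.26 against 0.08), with 0 called higher and 9 lower beside 6.78% and 3.91%, so the called-lower share of 11.1% was above the background. NK cells had 13 of 85 higher (median -0.11 against 0.07), with 1 called higher and 2 lower beside 5.08% and 2.01%. Monocytes had 19 of 87 higher (median -0.08 against 0.05), with 0 called higher and 2 lower beside 3.83% and 2.85%. T cells had 39 of 85 higher (median -0.02 against 0.12), with 0 called in either direction beside 5.74% and 2%. The medians over all genes depended on abundance. Over the genes with the most UMIs they were -0.05 in B cells (191 genes) and -0.02 in NK cells (1055 genes). In monocytes (2000 genes), T cells (2607 genes) and neutrophils (5392 genes) they were 0.006, 0.06 and -0.03. The T cell count depended on the setting: it was 16 with median-of-ratios scaling, 18 as a mean over cells and 23 after thinning, and 16 of the 85 genes lay above the median of all genes. Across lineages, 31 of 81 nuclear genes were lower in all 5 (38.3%), against 7.96% of all genes. Cox6a1 alone was higher in all 5 (1.23%), against 12.8% of all genes.

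The named nuclear differences between HDCA+CLP and CLP were led by B cells. In these cells Uqcr10 stood at 180, 321 and 179 CPM (log2 ratio -0.84, -1.12 to -0.57). Cox7b, a complex IV subunit, stood at 215, 243 and 138 CPM (-0.81, -1.13 to -0.49). Uqcrq stood at 136, 287 and 178 CPM (-0.69, -0.98 to -0.41). For Uqcr10 the HDCA+CLP value lay beside Sham, for Uqcrq it lay between Sham and CLP, and for Cox7b it lay below both.

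Single genes in the other lineages differed less or rested on few UMIs. Ndufa4, now counted as a complex IV subunit, was at 86.4, 132 and 102 CPM in neutrophils (HDCA+CLP to CLP -0.38, -0.43 to -0.33). In monocytes Sdhd stood at 99.7, 132 and 101 CPM (-0.39, -0.55 to -0.22), whereas Sdhb stood at 164, 186 and 224 (0.27, 0.16 to 0.39). In NK cells Ndufaf4, a complex I assembly factor, stood at 28.7, 29.3 and 13.9 CPM (-1.07, -1.63 to -0.55). In T cells Cox6a1 stood at 194, 137 and 164 CPM (0.25, 0.15 to 0.36).

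Other genes of mitochondria were taken from lists chosen with earlier results of these data known. In CLP neutrophils, 52 of 77 mitochondrial ribosomal protein genes were higher than in Sham (29 called higher, which is 37.7% against 11.2% of all genes, and 5 lower, 6.49% against 22.2%; median 0.66), while their summed log2 ratio had the other sign (-0.10). Of 20 genes of the tricarboxylic acid cycle and pyruvate entry, 13 were higher in neutrophils (median 0.12, against -0.11 over all genes) and 8 in T cells (median -0.10, against -0.04). Cycs, the cytochrome c that carries electrons from complex III to complex IV, stood at 206 and 396 CPM in monocytes (0.94, 0.82 to 1.07). Of the measured regulators of mitochondrial gene expression, 3 of 7 were higher in CLP neutrophils, 2 of 10 in B cells, 3 of 9 in T cells, 2 of 10 in NK cells and 5 of 9 in monocytes. Over all genes the shares higher were 39.1%, 41.9%, 46.6%, 34.4% and 40.5%. One of them, the transcription factor Yy1, stood at 177 and 87.6 CPM in NK cells (-1.02, -1.25 to -0.78). In HDCA+CLP against CLP, 2 of 8, 4 of 7, 8 of 9, 8 of 10 and 9 of 9 of these regulators were higher in the same order of lineages, where 40.2%, 56.9%, 67.0%, 57.8% and 56.5% of all genes were.

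Several measures moved with these comparisons, and their part in the results was not tested. Malat1, a nuclear RNA that is retained when cytoplasm leaks, stood at 19679, 17588 and 25071 CPM in T cells, and was higher in HDCA+CLP than in CLP in all 5 lineages. It was lower in CLP than in Sham in all 5, for example at 22499 and 6504 CPM in neutrophils and 26323 and 14102 CPM in NK cells. AY036118, a transcript overlapping ribosomal RNA sequence, was lower in HDCA+CLP than in CLP in all 5, at 331, 691 and 290 CPM in T cells, while Sham was below CLP in each lineage, for example at 382 and 763 CPM in B cells. As a measure of free neutrophil RNA, S100a8 in B, T and NK cells reached 0.763% to 1.76% of its neutrophil level in CLP and HDCA+CLP. In Sham it reached 0.0275% to 0.0531%. Monocytes reached 0.950%, 3.44% and 4.61% (Sham, CLP, HDCA+CLP). The 5% limit of the neutrophil gate itself bounds this measure. The limit of 10% mitochondrial UMIs per cell uses the genes described here, and it removed 51, 61 and 11 T cells. The largest shares were lost from monocytes, with 11, 55 and 13 cells removed (3.69%, 7.07% and 4.39%). In the HDCA+CLP B gate erythroid markers summed to 1036 CPM, against 2.71 in CLP. In monocytes progenitor markers (Kit, Cd34, Mpo, Elane) were at 3.66, 143 and 159 CPM. The 7 monocyte markers that the gates did not use summed to 25743.5, 9639.3 and 10633.5 CPM in the monocyte gate. Lyz2, Ccr2, Cx3cr1, Cd68 and Ctss were lower in CLP than in Sham, and Ly6c2 and Fcgr1 were higher. Lyz2 stood at 21576.2 and 5240.93 CPM in Sham and CLP, and Ly6c2 at 781.677 and 2425.64. Whether the monocyte gate held a different mix of cells in Sham and CLP was not tested.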

How the data were processed

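Counts of UMIs per gene and barcode were deposited by the authors, whole numbers from Cell Ranger 5.0.1 per the file headers; Seurat 4.0.6, R 4.0.3 and the build mm39 come from the submitters' processing notes. Barcodes numbered 7159 (Sham), 11387 (CLP) and 12205 (HDCA+CLP), with 42427093, 87031721 and 95178381 UMIs. Kept cells had at least 500 UMIs, 200 genes and at most 10% mitochondrial UMIs. Cells meeting gates of 2 lineages were left out as doublets (264, 403 and 383), except T with NK and neutrophil with monocyte. This left 6627, 10437 and 11640 cells, of which 87, 338 and 183 met no gate. Pairs of libraries shared 17 to 34 barcodes. UMIs were summed per lineage and library, scaled to CPM, and compared as log2 ratios with exact conditional binomial 95% intervals. These intervals cover counting error only. The method was tested on simulated counts that held counting error alone, so that test could not assess variation between cells or animals. A gene at 0 in 1 library took 3 counts as its floor, and had no direction where that floor exceeded the other library.

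Named were the 13 mitochondrial genes, Sdha to Sdhd, Atp5g1 to Atp5g3, tissue isoforms, Ndufa4, Cox7a2l, and the 3 nuclear genes with the largest difference each way by the interval bound nearest 0, at least 50 UMIs; Ndufs3, Cox5a, Atp5s and the promoter genes were named after their values were seen. The members and lists were chosen with earlier results of these data known. Alternatives covered the mitochondrial limit, scaling, cell weighting, thinning to 2000 UMIs, depth, doublets, gates and minimum counts. Reads shared by overlapping genes or near-identical copies (mt-Nd4l and mt-Nd4, mt-Atp8 and mt-Atp6, Atp5o) could not be split here. Python 3.11.15, numpy 2.4.6, scipy 1.17.1 and pandas 2.3.3 were used.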

Additional observations from a re-analysis of the deposited data

How the results depend on the processing

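No paired analysis was possible because each group has 1 library. Over the settings that applied to all neutrophils and the other lineages, 234 of the counts of higher genes stayed within 1.5 times and 26 did not. Of the summed log2 ratios, 141 stayed within their interval, 117 moved beyond it and 2 changed sign. Of the medians, 228 were counted as staying, 29 as moved and 3 as sign changes, which left some sign changes out. In CLP against Sham, mitochondrial medians had the opposite sign under 3 of 13 settings in B cells, 3 in NK cells and 1 in neutrophils. Nuclear medians did so under 1 setting in B cells and 2 in T cells. For single genes, 6268 ratios were counted as staying within their interval, 752 as moved and 32 as sign changes, in the same way. The cause was not tested.

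CLP against Sham. Without doublet removal, 5 mitochondrial genes were higher in neutrophils (median -0.13; mt-Cytb -0.28, mt-Nd4 -0.20, mt-Nd4l -0.0899) and 3 in B cells (Uqcrb 0.17, mt-Co3 -0.00313, mt-Cytb -0.0382). With simulated doublets also left out, the counts were 8 and 4 (B cells: Uqcrb 0.23, mt-Co3 -0.00891, mt-Cytb -0.0393). With the 5% mitochondrial limit, 4 were higher in B cells (mt-Co3 -0.0686). As a mean over cells, Atp5b was -0.0188 in B cells, and in T cells the nuclear median was -0.0121, Cox6c -0.0222 and Uqcrq -0.0121. Thinned to 2000 UMIs, the nuclear sum was -0.00947, Atp5b -0.0682 and Ndufa4 -0.0583 in B cells, and the nuclear median was -0.00112, Cox6c -0.0313 and Uqcrq -0.10 in T cells. With median-of-ratios size factors, 4 mitochondrial genes were higher in T cells (sum 0.00909, mt-Co3 0.0263, mt-Nd1 0.0043) and 8 in NK cells (mt-Nd4 0.0197); in monocytes Cox6a1 was 0.0504 and Cox6c 0.0378. The granule split was chosen after seeing the data: among neutrophils with 1 to 5% granule transcripts, 1 mitochondrial gene was higher (median -0.54, sum -0.36), and with 5% or more, 3 (median -0.28, sum -0.0503).

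HDCA+CLP against CLP. With size factors, nuclear genes higher numbered 14 in neutrophils (Cox5b 0.00235), 16 in T cells, 7 in NK cells and 11 in monocytes, and mitochondrial genes 1 in NK cells. With the restricted denominator or without doublet removal, 0 mitochondrial genes were higher in neutrophils (mt-Co1 -0.00864 and -0.000729), and the latter gave 1 in T cells. With the 5% limit, B cells had 10 nuclear and 5 mitochondrial genes higher (mt-Co1 0.0833, mt-Nd4 0.0768) and T cells 2 (mt-Nd4 0.0704); with no limit, NK cells had 1. As a mean over cells, mitochondrial genes higher numbered 1 in B cells, 1 in NK cells and 5 in monocytes (mt-Nd4 0.00479), and nuclear genes 18 in T cells. Thinned, mitochondrial genes numbered 0 in B cells (Atp5l 0.00343) and 1 in NK cells, nuclear genes 23 in T cells, and in monocytes Uqcrb was 0.0684 and mt-Nd4 0.0239. Among neutrophils with 1 to 5% granule transcripts, 3 nuclear genes were higher.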

Other observations

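Tissue isoforms of the chain were rare in blood. Cox6a2, the heart and muscle isoform of subunit 6A, stood at 4.10, 4.54 and 10.8 CPM in NK cells (Sham, CLP, HDCA+CLP), a log2 ratio of HDCA+CLP to CLP of 1.25 (0.44 to 2.07). Its 28 UMIs in HDCA+CLP came from 13 NK cells, and 11 of them from 1 cell. In CLP B cells Cox6a2 had 12 UMIs in 4 of 273 cells, while Sham had 2 UMIs in 1 of 2696 cells. The HDCA+CLP B cells had 0. Cox4i2, the lung isoform of subunit 4, had no UMI in B cells of any library.

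Genes of uncoupling and antioxidant defence differed widely between lineages. Sod2, the superoxide dismutase of the mitochondrial matrix, stood at 104 and 2367 CPM in Sham and CLP monocytes (log2 ratio 4.51, 4.35 to 4.68), and at 17.8 and 233 in neutrophils (3.71, 3.10 to 4.40). Ucp2, an inner-membrane carrier, was lower in CLP than in Sham in all 5 lineages, for example at 374 and 229 CPM in T cells (-0.71, -0.76 to -0.65). Idh2, a mitochondrial isocitrate dehydrogenase, stood at 30.9, 12.3 and 20.6 CPM in T cells.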
